A study of Homo sapiens with 8 samples.

Results

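The 4 arrays described here hold HPB-ALL cells, an established human line of T cell acute lymphoblastic leukaemia (T-ALL), with and without a short hairpin RNA (shRNA) against the nuclear protein TOX. They were chosen by their titles and are 4 of the 8 arrays of the series; the other 4 hold the same constructs in CCRF-CEM, another T-ALL line. In HPB-ALL, shTOX-1 and shTOX-2, which are different hairpins against TOX, had 1 array each, as did a scramble shRNA and untransduced cells. Per the labels, the 3 transduced populations were spun with virus, selected with puromycin and kept for at least 2 weeks, whereas the untransduced cells carried no transgene. Being transduced and being selected therefore cannot be told apart in these arrays. The shTOX pair carry different hairpins, so their spread includes that difference. Whether the 4 RNAs came from independent cultures is not given in the sources used here, and p-values reflect the spread among these arrays, which may be technical in part.

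TOX binds DNA through an HMG box and is needed for T cells to develop in the thymus. In mature T cells it is known for its part in the exhausted state that follows lasting stimulation. T-ALL cells are transformed thymocytes and keep much of the thymic programme, including parts of the T cell receptor machinery. Values below are log2 intensities, 1 per gene and array, so a difference of 1 is a factor of 2 in intensity. Where a pair of values is given for the hairpins, shTOX-1 comes before shTOX-2, and where a pair is given for the controls, scramble comes before untransduced cells. Genes with a mean at or above log2 5.18 over all 8 arrays were tested, 8930 in all.

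The arrays were alike in scale and in overall profile. Over all 8 arrays the median intensity lay between 4.62 and 4.71, and the HPB-ALL arrays correlated with each other at r = 0.966 to 0.985 across the 8930 genes. The hairpin arrays lay closest together, with a median absolute difference of 0.167 and 67 genes apart by 1 or more. The untransduced array lay farthest from the rest, with 215 genes apart by 1 or more from shTOX-1, 255 from shTOX-2 and 178 from scramble. The T cell label was borne out for 7 of 8 annotated T cell markers, which were above the filter level in all 4 arrays. CD2 was below it in all 4. The other listed T cell markers, CD3D, CD3E and CD3G, had no named probe set here. Of 5 annotated B cell markers, 0 were above that level in all 4 arrays. Some markers of other cell types were above it in all 4, as given below. In such bulk RNA, fewer cells of a type and less RNA per cell cannot be told apart.

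TOX was lower with both hairpins, and far more so with shTOX-2. Its level was 10.16 with shTOX-1 and 8.75 with shTOX-2, against 10.59 with scramble and 10.64 in untransduced cells. The controls lay within a small fraction of a log2 unit of each other, while the hairpins were far apart. The shTOX-1 array kept 74.2% of the scramble signal, and the shTOX-2 array 28.0%. The difference of the means was -1.16 ± 0.41 (SE), with an adjusted p of 0.612 by limma with Benjamini-Hochberg adjustment, and TOX ranked at place 306 of the 8930 genes by p. An exact two-sided permutation test of the 4 values gave p = 0.333, the smallest that the 6 possible assignments allow. Its tested relatives had smaller differences, 0.07 for TOX4 and -0.26 for TOX2. TOX4 stood at 9.26 and 9.27 with the hairpins, against 9.14 with scramble and 9.25 untransduced. TOX2 stood at 5.66 with shTOX-1 and 5.08 with shTOX-2, against 5.66 with scramble and 5.58 untransduced. TOX3 was between 4.73 and 5.0 in the 4 arrays, under the filter level.

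Across all genes, 0 of 8930 (0%) passed an adjusted p of 0.05 for the 2 hairpins against both controls by limma, and the smallest adjusted p was 0.212. At an unadjusted p under 0.05 there were 677 genes. Against scramble alone the limma test also called 0 genes (0%), with 765 at an unadjusted p under 0.05 and a smallest adjusted p of 0.215. Against untransduced cells alone it called 9 genes (0.101%), 4 higher and 5 lower, with 1666 at an unadjusted p under 0.05. Leaving out 1 array at a time changed these counts. Without HPB-ALL shTOX-1 the test against both controls called 1 gene, SRGN (difference -2.70, adjusted p = 0.028 by limma). The test against scramble called 14 genes without shTOX-1 and 16 without shTOX-2. The test against untransduced cells called 186 genes without shTOX-1, 104 without shTOX-2 and 0 without either CCRF-CEM shTOX array, which enters only through the spread. In the last 2 tests, run on all arrays, a lone scramble or untransduced array was assumed to vary as the hairpin pairs of both lines do. With an HPB-ALL hairpin array left out, every HPB-ALL group in those tests held 1 array. The spread then came from the CCRF-CEM hairpin pair alone, so the counts rest on no HPB-ALL replicate. Since scramble and untransduced cells differed from each other in many genes, that difference enters the spread of the test against both controls. Genes were therefore also sorted by whether the arrays overlap, which is a description and not a test. Both hairpins lay above both controls by any amount in 2190 genes (24.5%) and below both in 1455 (16.3%). With a gap of at least 0.5 between the nearest hairpin and the nearest control, 51 genes (0.571%) were higher and 51 (0.571%) lower. The rule needs both hairpins to be apart from the controls, so the size of the difference with each is a description. The median difference from the mean of the controls in the higher set was 0.81 for shTOX-1 cells and 0.75 for shTOX-2 cells, and in the lower set -0.96 for shTOX-1 cells and -0.81 for shTOX-2 cells. Among the higher genes shTOX-2 lay farther from the controls in 20 of 51 genes, and in the lower set in 26 of 51. When shTOX-1 was compared with scramble and shTOX-2 with untransduced cells, so that the differences had no array in common, they correlated at r = 0.113 across the 8930 genes. With the controls exchanged, r was 0.222.

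The named lower genes included SRGN, CHI3L2, CFD, the T cell surface protein CD5 and the chemokine receptor CCR4. SRGN, which encodes serglycin, the proteoglycan core of secretory granules, had 6.28 with shTOX-1 and 5.17 with shTOX-2, against 7.76 with scramble and 7.99 untransduced. Hairpins and controls were separated by a gap of -1.48, and shTOX-2 lay at the filter level. The difference of the means was -2.15 ± 0.31, a factor of 4.43, with an adjusted p of 0.212 by limma. CHI3L2, a secreted chitinase-like protein, had 6.08 and 6.52 with the hairpins, against 8.46 with scramble and 7.83 untransduced (difference -1.85 ± 0.27). CFD, the serine protease complement factor D, had 7.84 and 7.59 with the hairpins, against 9.19 and 8.89 in scramble and untransduced cells (difference -1.33 ± 0.18). In both genes the hairpins lay close together and the scramble array was the highest of the 4. CD5, a surface protein that dampens T cell receptor signals, had 6.88 and 6.89 with the hairpins, against 7.96 and 8.13 in scramble and untransduced cells. The difference was -1.16 ± 0.17, and CHI3L2, CFD and CD5 shared the adjusted p of 0.212 by limma. TYROBP, an adaptor with an activation motif used by NK and myeloid receptors, had 5.90 and 5.60 with the hairpins, against 6.80 with scramble and 7.34 untransduced (difference -1.32 ± 0.21, adjusted p = 0.289 by limma). Here scramble lay between the hairpins and the untransduced cells.

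The rest of the 12 named lower genes had an adjusted p between 0.612 and 0.643 by limma. CCR4, a receptor for skin-homing and type 2 helper T cells, had 8.27 and 7.81 with the hairpins, against 9.14 and 9.32 in scramble and untransduced cells (difference -1.19 ± 0.24). CTSW, cathepsin W of cytotoxic lymphocytes, had 6.44 and 6.33 with the hairpins, against 7.21 and 7.56 in scramble and untransduced cells. ETV5, an ETS transcription factor, had 8.25 and 8.12 with the hairpins, against 9.08 and 9.14 in the controls. In these genes too both hairpins lay below both controls, which the naming rule requires. The histone demethylase KDM7A had 7.39 and 7.78 with the hairpins, against 8.62 and 8.57 in scramble and untransduced cells. The orphan receptor GPR162 had 6.93 and 7.32 with the hairpins, against 8.17 and 8.23 in the controls. LDC1P and CEP192P1 bear pseudogene names, and probe sets of pseudogenes may take signal from related genes, so their source is uncertain. LDC1P had 6.16 and 6.30 with the hairpins, against 7.72 and 7.75 in the controls, and CEP192P1 had 8.27 and 7.97 with the hairpins, against 9.19 and 9.31 in the controls.

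Several of these genes are known from myeloid and NK cells, so the marker lists of those cells are given beside them. Of 8 annotated myeloid markers, 2 were above the filter level in all 4 arrays, while CD14, CSF1R, S100A8 and CSF3R were below it in all 4. The log2 of the summed myeloid marker intensity was 8.40 with shTOX-1 and 9.20 with shTOX-2, against 8.86 with scramble and 8.50 untransduced, so hairpins and controls overlapped. MPO, the myeloperoxidase of myeloid granules, varied most among them, with 5.10 with shTOX-1 and 7.94 with shTOX-2, against 7.03 with scramble and 4.83 untransduced. Of 6 annotated NK markers, 4 were above the filter level in all 4 arrays and GNLY was below it in all 4. Their summed intensity was 8.49 and 8.86 with the hairpins, against 9.04 and 8.54 in scramble and untransduced cells, which again overlapped. Of 6 annotated erythroid and megakaryocyte markers, 4 were above the filter level in all 4 arrays and 0 below it in all 4. They summed to 8.81 and 8.77 with the hairpins, against 8.91 and 8.95 in the controls. Of 7 annotated fibroblast and epithelial markers, the keratins KRT8, KRT18 and KRT19 were above the filter level in all 4 arrays. EPCAM, DCN, LUM and FN1 were below it in all 4. These markers summed to 8.22 and 8.34 with the hairpins, against 8.42 and 8.74 in the controls. Both of these sums were somewhat lower with the hairpins. The T cell markers summed to 11.21 and 10.74 with the hairpins, against 11.43 and 11.85 in scramble and untransduced cells. The part that any of these played in the results was not tested.

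**Figure D1:**
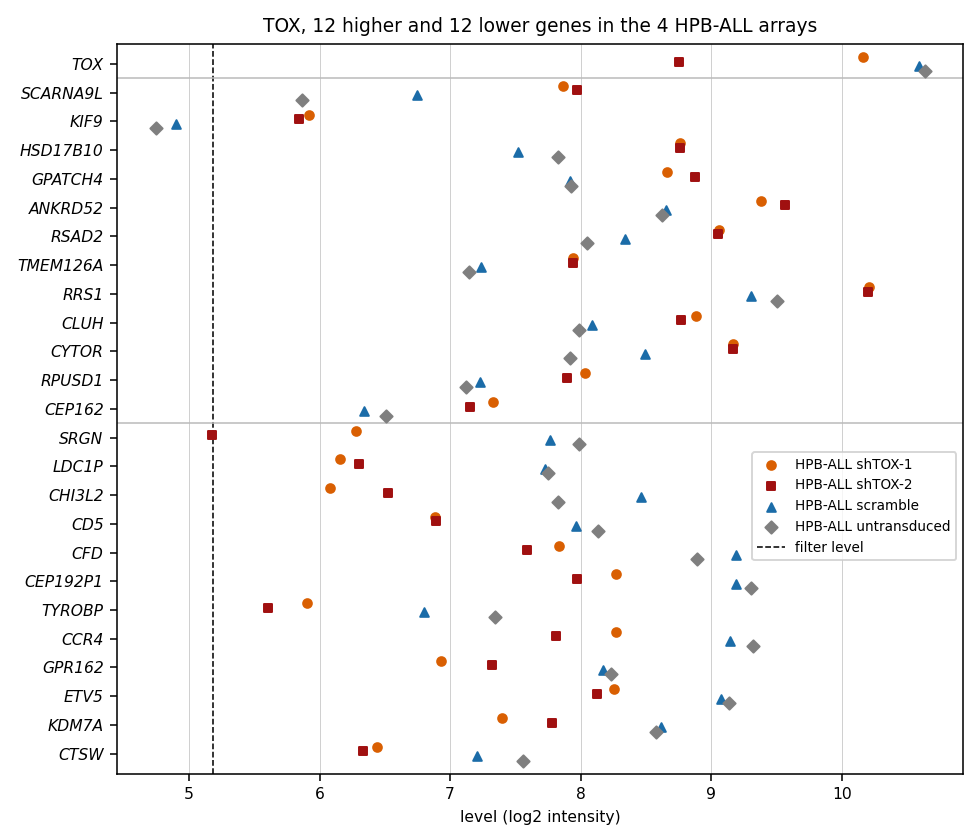
Levels of TOX and of the 24 genes named for the widest gap between hairpins and controls, as log2 intensity on the x axis, with 1 point for each of the 4 HPB-ALL arrays. The dashed line is the filter level of 5.18. In each of the 24 genes both hairpin points lie on 1 side of both control points, while for TOX the shTOX-1 point at 10.16 lies near the controls and the shTOX-2 point at 8.75 far below them.

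The named higher genes included the mitochondrial enzyme HSD17B10, the nucleolar protein GPATCH4 and the centriole protein CEP162. HSD17B10, a mitochondrial dehydrogenase that is also a subunit of mitochondrial RNase P, had 8.76 with both hairpins, against 7.52 with scramble and 7.83 untransduced. The difference was 1.09 ± 0.20, a factor of 2.13, with an adjusted p of 0.612 by limma, the value that all 12 named higher genes shared. TMEM126A, which takes part in the assembly of respiratory complex I, had 7.94 and 7.95 with the hairpins, against 7.24 and 7.15 in scramble and untransduced cells. CLUH, which binds messenger RNAs of mitochondrial proteins, had 8.88 and 8.77 with the hairpins, against 8.09 and 7.99 in the controls. In these 3 genes the hairpins matched each other closely, and the naming rule requires that they stand clear of both controls. GPATCH4, a nucleolar protein, had 8.66 and 8.87 with the hairpins, against 7.92 and 7.93 in scramble and untransduced cells. RRS1, a factor of ribosome assembly, had 10.21 and 10.20 with the hairpins, against 9.30 with scramble and 9.50 untransduced (difference 0.80 ± 0.23). RPUSD1, a protein with a pseudouridine synthase domain, had 8.03 and 7.90 with the hairpins, against 7.23 and 7.12 in the controls. All 3 were named for their gap between hairpins and controls, so the split they share follows from that choice.

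ANKRD52, a regulatory subunit of protein phosphatase 6, had 9.38 and 9.56 with the hairpins, against 8.65 and 8.63 in scramble and untransduced cells. The kinesin KIF9 had 5.92 and 5.84 with the hairpins, against 4.90 and 4.75 in the controls, so both controls lay under the filter level of 5.18. CEP162, a protein of centrioles, had 7.33 and 7.15 with the hairpins, against 6.34 and 6.51 in the controls. In these 3 genes both hairpins lay above both controls, which the naming rule requires. The long noncoding RNA CYTOR had 9.17 with both hairpins, against 8.49 with scramble and 7.92 untransduced. The small Cajal body RNA SCARNA9L had 7.86 and 7.97 with the hairpins, against 6.74 with scramble and 5.86 untransduced. In CYTOR and SCARNA9L the scramble array stood between the untransduced cells and the hairpins, so part of the distance to untransduced cells was present without a TOX hairpin.

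The list for T cell receptor signalling was lower with the hairpins as a group. Of 13 tested members, 0 lay above both controls and 7 below both in the hairpin arrays, against 24.5% and 16.3% of all genes. The median difference was -0.53, against 0.02 over all genes tested, and 11 of the 13 differences were negative. Taken against scramble alone the median was -0.47, and against untransduced cells alone -0.58, so the shift did not rest on 1 control. Without shTOX-2 the median difference was -0.28. All 3 transduced arrays lay below the untransduced one in 10 of the 13 genes and above it in 1 (all genes, 27.9% and 33.6%). The scramble minus untransduced median was -0.17, so part of the distance to untransduced cells was present without a TOX hairpin. Centred on each gene's mean over the 4 arrays, the list's median was -0.07 with shTOX-1 and -0.39 with shTOX-2, against 0.08 with scramble and 0.36 untransduced, so it was lowest in the shTOX-2 array and the shTOX-1 array lay near scramble. CD5 (above), CD7 and LCK had a gap of at least 0.5. CD7, an early T lineage surface protein, had 8.77 with shTOX-1 and 8.21 with shTOX-2, against 9.46 with scramble and 9.52 untransduced (difference -1.0 ± 0.23). LCK, the kinase that starts T cell receptor signalling, had 7.24 and 7.11 with the hairpins, against 7.80 and 7.83 in scramble and untransduced cells (difference -0.64 ± 0.15). Both had an adjusted p of 0.612 by limma. Further down the chain the gaps were narrow. The adaptor LCP2 had 8.80 and 8.38 with the hairpins, against 9.06 and 9.17 in scramble and untransduced cells. The kinase ZAP70 had 7.52 and 7.23 with the hairpins, against 7.65 and 7.86 in the controls. The adaptor LAT had 7.97 and 7.90 with the hairpins, against 8.49 with scramble and 8.03 untransduced, so its lower control lay just above the hairpins. THEMIS, which tunes receptor signals in thymocytes, followed none of this: it had 6.30 and 6.55 with the hairpins, against 8.21 with scramble and 4.29 untransduced.

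The LCK promoter is shown because LCK is the gapped member of this list whose promoter window held the RUNX motif TGTGGT, searched on both strands (reverse ACCACA); RUNX factors are lineage factors of T cells. Windows run from 250 bases before to 50 bases after the gene start and come from RefSeq on GRCh38.p14, and capitals mark the motif. Of the 13 listed genes, 9 had a window in that table, and 3 of the 9 (33.3%) held the motif, against 9.76% of the 6988 windows of tested genes and 13.1% of all 27305 windows. A match describes the letters of the window only.
LCK promoter, chr1:32251015-32251314, plus strand: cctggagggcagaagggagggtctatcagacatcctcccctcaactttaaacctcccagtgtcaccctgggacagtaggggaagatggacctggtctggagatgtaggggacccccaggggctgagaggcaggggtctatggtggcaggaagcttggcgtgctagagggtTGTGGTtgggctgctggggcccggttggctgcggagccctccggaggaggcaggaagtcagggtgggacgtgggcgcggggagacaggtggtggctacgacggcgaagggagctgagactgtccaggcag

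Transcription factors of the T lineage were lower by smaller amounts. All 15 tested members had a negative difference, with a median of -0.31 (all genes, 0.02), and 9 lay below both controls with 0 above both (all genes, 16.3% and 24.5%). None of the 15 had a gap of 0.5, and limma called 0 of them. The median was -0.24 against scramble alone and -0.37 against untransduced cells alone. The transduced arrays, scramble included, all lay below the untransduced one in 9 genes and above it in 1 (all genes, 27.9% and 33.6%). They were below it by 0.5 or more in 2 genes and above in 0 (all genes, 3.25% and 3.3%). The scramble minus untransduced median was -0.06. LEF1, a factor of early thymocyte development, had 9.51 with shTOX-1 and 9.08 with shTOX-2, against 9.76 with scramble and 10.29 untransduced (difference -0.73 ± 0.22, adjusted p = 0.612 by limma). RUNX3, the factor of the CD8 lineage, had 6.34 and 6.16 with the hairpins, against 6.88 and 6.64 in scramble and untransduced cells (difference -0.51 ± 0.22). BCL11B, needed for T lineage commitment, had 8.96 and 8.87 with the hairpins, against 9.20 and 9.25 in the controls. GATA3, which acts at several steps of T cell development, had 8.89 and 8.64 with the hairpins, against 9.11 and 9.05 in the controls. In each of these 4 genes the lowest array was shTOX-2. Among the 51 lower genes with a gap of 0.5, shTOX-2 lay farther from the controls in 26. A relation to the TOX level of the array was not tested.

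Stage markers of thymocytes showed a weaker and mixed picture. Of 21 tested, 3 lay above and 7 below both controls (all genes, 24.5% and 16.3%), with a median of -0.12. The median was -0.34 against scramble alone, -0.05 against untransduced cells alone and -0.51 with the 60th percentile filter. Scramble was the highest of the 4 arrays in 11 of the 21, against 21.8% of all genes. PTCRA, the pre-T cell receptor alpha chain, had 6.62 and 6.46 with the hairpins, against 6.90 and 7.30 in scramble and untransduced cells. CD4 had 6.37 and 6.46 with the hairpins, against 7.17 with scramble and 6.64 untransduced, whereas CD8A had 6.0 and 5.88 with the hairpins, against 5.72 and 5.77 in the controls. The egress receptor S1PR1 had 5.63 and 5.39 with the hairpins and 6.07 in both controls. CD38, a surface enzyme of activated and immature lymphocytes, was high in the scramble array alone: it had 7.69 and 7.05 with the hairpins, against 9.06 with scramble and 6.87 untransduced.

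Among 14 tested genes of adhesion and migration, 6 lay below both controls and 1 above (all genes, 16.3% and 24.5%), with a median of -0.38. The median was -0.22 against untransduced cells alone, -0.16 without shTOX-2 and -0.16 with no filter. In 7 of the 14 genes scramble was the highest of the 4 arrays, against 21.8% of all genes. CCR8, a chemokine receptor, had 6.15 with shTOX-1 and 4.56 with shTOX-2, against 6.84 with scramble and 8.03 untransduced (difference -2.08 ± 0.69, adjusted p = 0.612 by limma). With shTOX-2 it was dimmer than the filter level of 5.18, and its distance is therefore imprecise. The 4 arrays were spread over more than 3 log2 units, and the scramble minus untransduced difference was -1.18. CCR4 (above) was the other member with a gap of 0.5. ICAM1, a ligand of leukocyte integrins, had 8.18 and 8.15 with the hairpins, against 8.40 and 8.55 in scramble and untransduced cells. ICAM2 had 9.57 and 8.84 with the hairpins, against 9.60 and 10.07 in the controls, which left only a narrow gap. CXCR4, the receptor that holds T-ALL cells in the marrow, was nearly level at 10.79 and 10.75 with the hairpins, against 10.89 and 10.83 in the controls.

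**Figure D2:**
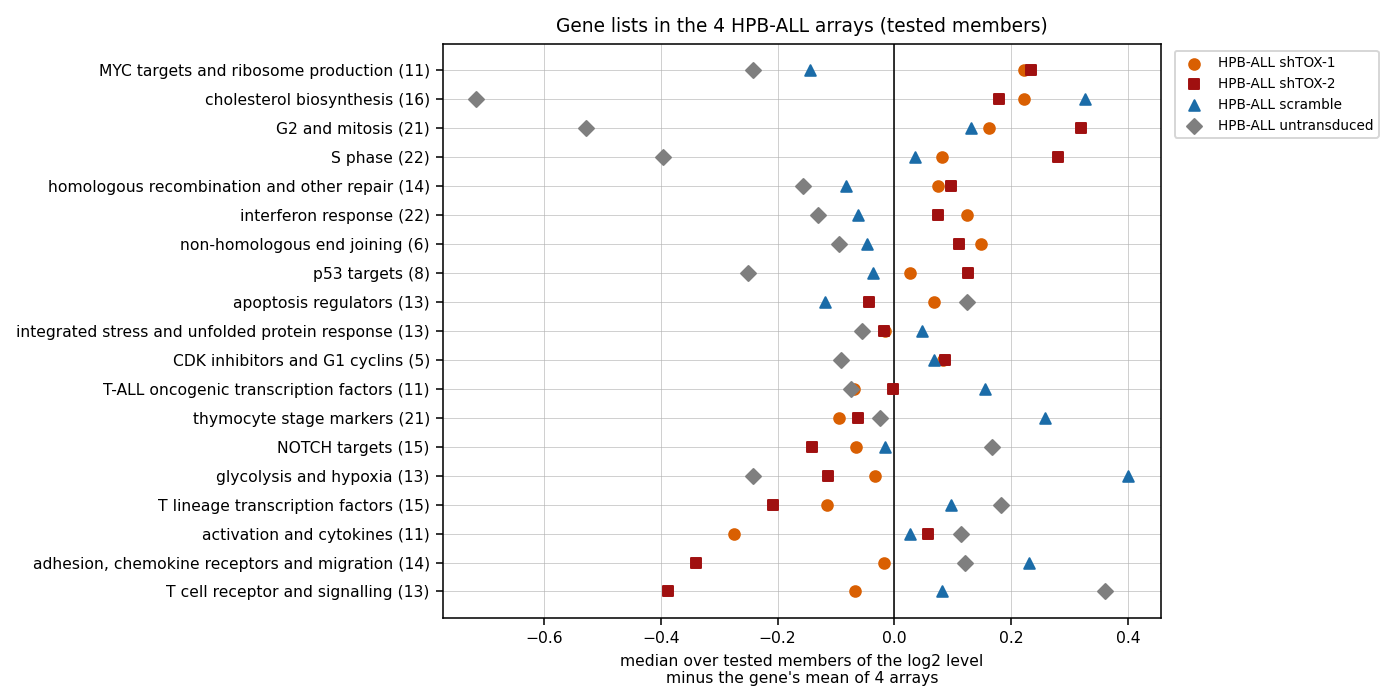
Median over the tested members of each gene list (their number in brackets) of the log2 level minus the gene's own mean over the 4 arrays, on the x axis, with 1 point per HPB-ALL array. Lists are ordered by the median difference between hairpins and controls, from 0.40 for MYC targets and ribosome production at the top to -0.53 for the T cell receptor and signalling at the bottom; for cholesterol biosynthesis 3 arrays lie together and the untransduced point lies apart at -0.72.

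MYC targets and genes of ribosome production were higher with the hairpins. Of 11 tested members, 10 lay above both controls and 0 below, against 24.5% and 16.3% of all genes, and limma called 0 of them. The median difference was 0.40; it was 0.34 against scramble and 0.46 against untransduced cells. The centred median of the list was 0.22 with shTOX-1 and 0.23 with shTOX-2, against -0.14 with scramble and -0.24 untransduced. RRS1 (above) and NOP16 had a gap of at least 0.5. NOP16, a nucleolar protein, had 7.56 and 7.37 with the hairpins, against 6.85 and 6.58 in scramble and untransduced cells (difference 0.75 ± 0.27, adjusted p = 0.612 by limma). RRP12, of ribosome export, had 8.80 and 8.85 with the hairpins, against 8.28 and 8.32 in the controls. ODC1, the rate-limiting enzyme of polyamine synthesis, had 11.55 and 11.54 with the hairpins, against 11.16 and 10.98 in the controls. These members stood alike with either hairpin. WDR12 had 8.94 and 8.88 with the hairpins, against 8.44 and 8.60 in the controls, and NOP58, a core protein of small nucleolar particles, had 10.93 and 11.07 with the hairpins, against 10.66 and 10.62 in the controls. FBL, the methyltransferase of the same particles, was the exception in this list, at 11.68 and 11.81 with the hairpins, against 11.87 and 11.68 in the controls. MYC itself lay on the other side: it had 9.72 and 9.66 with the hairpins, against 10.00 with scramble and 10.36 untransduced (difference -0.49 ± 0.23, adjusted p = 0.643 by limma). In the list of NOTCH targets, which holds MYC, 5 of 15 lay below both controls and 2 above (all genes, 16.3% and 24.5%), with a median of -0.15 that was -0.06 against scramble alone. LZTFL1 had the widest gap there, with 8.39 and 7.82 with the hairpins, against 8.86 and 8.98 in the controls.

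Interferon-induced genes were higher in part, and with more than 1 pattern across the arrays. Of 22 tested members, 11 lay above both controls and 3 below (all genes, 24.5% and 16.3%, the second near the list's own share), with a median of 0.23 that was 0.14 without shTOX-1, and limma called 0 of them against both controls. RSAD2, which encodes the antiviral enzyme viperin, had 9.06 and 9.05 with the hairpins, against 8.34 with scramble and 8.05 untransduced (difference 0.86 ± 0.18). IFIT3, of a family that binds viral RNA or its partners, had 8.78 with shTOX-1 and 9.17 with shTOX-2, against 8.19 with scramble and 7.30 untransduced (difference 1.23 ± 0.32). In IFIT3 the scramble array itself lay 0.88 above the untransduced one. IFIT1, its neighbour on chromosome 10, had 6.91 and 7.24 with the hairpins, against 6.80 with scramble and 5.20 untransduced, so nearly all of its distance was that of the transduced arrays from the untransduced one. IFIT5 had 9.46 and 9.43 with the hairpins, against 8.98 and 8.86 in scramble and untransduced cells. The RNA sensor IFIH1 had 6.20 and 6.01 with the hairpins, against 5.71 and 5.63 in the controls. For these genes, unlike IFIT1, scramble lay close to the untransduced array. HERC5, a ligase for ISG15, had 7.71 and 8.30 with the hairpins, against 7.52 and 7.43 in the controls, and IFI44 had 7.38 and 7.78 with the hairpins, against 7.17 and 6.83 in the controls.

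The promoters of IFIT3 and IFIT1 are shown because these neighbours share the same element but differed in where the scramble array stood. The motif searched was the interferon-stimulated response element GAAANNGAAA (reverse TTTCNNTTTC) on both strands, and capitals mark its matches, 2 in each window. It was found in 11 of the 17 windows matched for this list (64.7%), against 2.52% of windows of tested genes and 3.65% of all windows. The list was made of interferon-induced genes, so a high share of this element follows from that choice and is no result of these arrays. The shares describe the letters of the windows only. The element was in 0 of the 10 windows of named higher genes and 0 of the 5 of named lower genes.
IFIT3 promoter, chr10:89327747-89328046, plus strand: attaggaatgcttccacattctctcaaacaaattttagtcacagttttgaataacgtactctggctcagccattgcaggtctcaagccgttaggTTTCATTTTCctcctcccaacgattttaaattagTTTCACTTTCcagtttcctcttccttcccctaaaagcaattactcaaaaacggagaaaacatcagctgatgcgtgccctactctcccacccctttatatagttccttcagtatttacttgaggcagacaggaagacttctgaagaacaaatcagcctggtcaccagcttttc
IFIT1 promoter, chr10:89392373-89392672, plus strand: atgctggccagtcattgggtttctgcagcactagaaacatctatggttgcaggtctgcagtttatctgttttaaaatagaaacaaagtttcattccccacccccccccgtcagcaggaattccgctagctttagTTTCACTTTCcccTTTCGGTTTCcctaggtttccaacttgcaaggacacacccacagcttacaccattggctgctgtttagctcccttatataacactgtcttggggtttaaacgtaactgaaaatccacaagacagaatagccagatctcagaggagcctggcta

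Cell cycle genes were higher with the hairpins mainly relative to the untransduced cells. All 22 tested S phase genes had a positive difference, against 4749 of all 8930 genes, with a median of 0.32. Of these 22, 10 lay above both controls and 0 below (all genes, 24.5% and 16.3%). Set against scramble alone the median was 0.14, and against untransduced cells 0.57. For the 21 genes of G2 and mitosis the median was 0.34, but it was 0.08 against scramble and 0.68 against untransduced cells. Of these 21, 11 lay above both controls and 0 below (all genes, 24.5% and 16.3%). All 3 transduced arrays lay above the untransduced one in 21 of 22 S phase and 21 of 21 mitotic genes, against 33.6% of all genes (and 27.9% of all genes for the reverse order). NDC80, of the kinetochore, was the member with a gap of 0.5 between hairpins and controls, with 10.08 and 10.03 with the hairpins, against 9.52 with scramble and 9.22 untransduced. CLSPN, which encodes the checkpoint adaptor claspin, had 8.20 with shTOX-1 and 8.79 with shTOX-2, against 7.87 and 7.25 in scramble and untransduced cells. Cyclin E1 (CCNE1) had 7.55 and 8.30 with the hairpins, against 7.31 and 6.66 in the controls. In both, shTOX-2 was the highest array and the untransduced one the lowest. Cyclin B1 (CCNB1) had 8.60 and 8.73 with the hairpins, against 8.28 with scramble and 6.99 untransduced, so most of its distance was shared by scramble. CDK6, a kinase that drives the G1 phase in lymphoid cells, had 11.40 with both hairpins, against 10.88 and 11.06 in the controls, and CDK4 had 11.00 and 10.90 with the hairpins, against 10.73 and 10.63 in the controls.

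DNA repair genes showed small differences, most of them positive. All 6 tested genes of non-homologous end joining had a positive difference, with a median of 0.20. Of these 6, 4 lay above both controls and 0 below (all genes, 24.5% and 16.3%). XRCC5 and XRCC6 encode the subunits of the Ku dimer that caps broken ends. XRCC5 had 11.81 and 11.78 with the hairpins, against 11.66 with scramble and 11.33 untransduced. XRCC6 had 9.93 and 9.89 with the hairpins, against 9.75 and 9.61 in the controls. The gap between hairpins and controls was 0.12 for XRCC5, less than the distance between its controls, and 0.14 for XRCC6. Of 14 genes of homologous recombination and other repair, 7 lay above both controls and 1 below (all genes, 24.5% and 16.3%), with a median of 0.26 that was 0.11 against scramble alone. RAD51C had 9.83 and 9.99 with the hairpins, against 9.37 and 9.38 in scramble and untransduced cells, and the mismatch protein MSH6 had 8.92 and 9.18 with the hairpins, against 8.58 and 8.24 in the controls. RAD51B was the lower member, with 5.15 and 5.16 with the hairpins, against 5.46 and 5.49 in the controls, close to the filter level. Of the 8 tested p53 targets, 3 lay above both controls and 0 below (all genes, 24.5% and 16.3%). Their median was 0.17, and it was 0.11 against scramble alone and 0.07 with no filter. PMAIP1, the death inducer NOXA, had 11.38 and 11.23 with the hairpins, against 10.91 with scramble and 10.47 untransduced.

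Among apoptosis regulators, 3 of 13 lay above both controls and 3 below, near the 24.5% and 16.3% of all genes, with a median of 0.05 that ranged from -0.11 to 0.16 with 1 array left out. CFLAR, an inhibitor of caspase 8, had 6.51 and 6.33 with the hairpins, against 6.08 and 5.86 in scramble and untransduced cells. BAK1, which opens the mitochondrial outer membrane, had 8.88 and 8.64 with the hairpins, against 8.44 and 8.28 in the controls. BCL2L11, the death inducer BIM, had 6.91 and 6.84 with the hairpins, against 7.06 and 7.22 in the controls. Of 11 activation and cytokine genes, 3 lay below both controls and 0 above (all genes, 16.3% and 24.5%), with a median of -0.34. That median was -0.05 against scramble alone, -0.09 without shTOX-1 and -0.12 with no filter. Among 11 T-ALL oncogenic factors, 1 lay above both controls and 1 below, against 24.5% and 16.3% of all genes, so the list did not stand out. The higher one, TAL1, had 6.21 and 6.58 with the hairpins, against 6.03 and 5.66 in the controls. The lower one, SPI1, had 6.49 and 6.53 with the hairpins, against 6.60 and 6.69 in the controls. Lists with 3 or fewer tested members were those of inhibitory receptors and of the V(D)J recombinase, in which RAG2 had 9.52 and 9.47 with the hairpins, against 9.24 and 9.63 in the controls. Of the 14 solute carriers listed, 0 had a probe set with a name here.

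**Figure D3:**
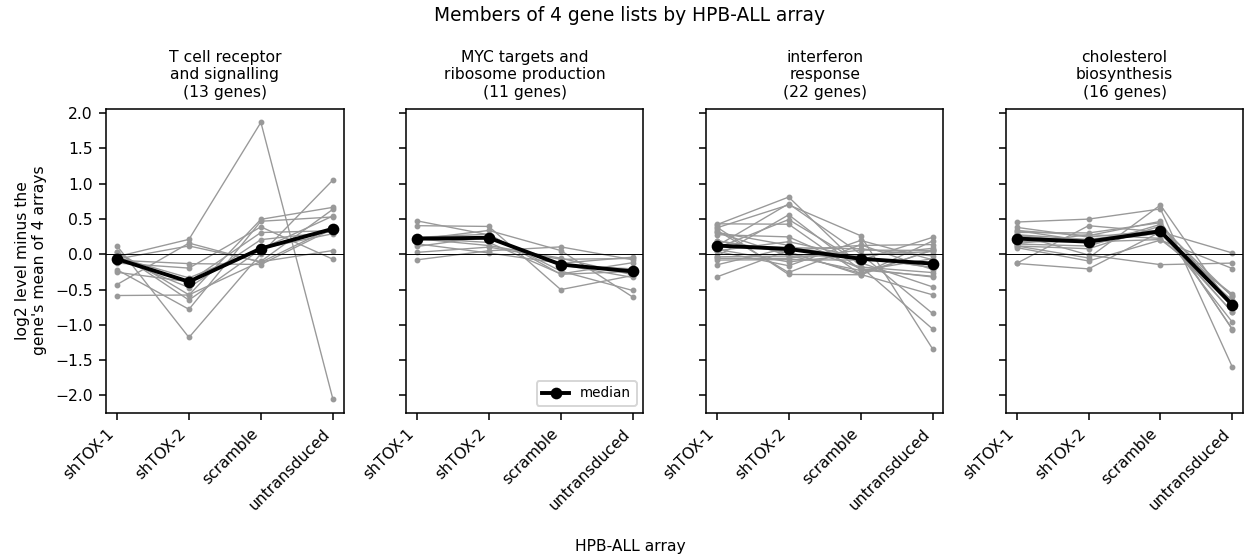
Log2 level minus the gene's own mean over the 4 arrays (y axis) for each tested member of 4 lists, by HPB-ALL array (x axis); thin lines join the arrays of 1 gene and the thick line is the median. The ribosome list separates hairpins from controls, with a median of 0.40 for that difference. The T cell receptor list has a median difference of -0.53, but its thick line lies at -0.07 with shTOX-1, near the 0.08 of scramble. The cholesterol list separates the untransduced array from the other 3, with a scramble minus untransduced median of 1.08. The member of the T cell receptor list that peaks in scramble and drops in untransduced cells is THEMIS.

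Some shifts were already present in the scramble array. In 295 genes (3.3%) all 3 transduced arrays lay above the untransduced one by at least 0.5, and in 290 (3.25%) below it. Cholesterol biosynthesis was the clearest list of this kind. All 3 transduced arrays lay above untransduced cells in 14 of 16 genes, 12 of them by 0.5 or more (all genes, 33.6% and 3.3%). Its median difference was 0.39 against both controls together, but -0.15 against scramble and 0.84 against untransduced cells. HMGCS1, an early enzyme of the pathway, had 8.89 and 8.93 with the hairpins and 9.08 with scramble, against 6.83 in untransduced cells. It rose against untransduced cells by 2.08 ± 0.19, with an adjusted p of 0.027 by limma. STARD4, a sterol carrier, had 8.49 with both hairpins and 8.63 with scramble, against 7.12 untransduced. MVK had 7.70, 7.56 and 7.65 in shTOX-1, shTOX-2 and scramble cells, against 6.36 untransduced. CREB3L3, a membrane-bound transcription factor of lipid metabolism, had 8.79, 8.88 and 8.54 in the same 3 arrays, against 7.08. For all 4, scramble and hairpins were nearly level.

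The called genes against untransduced cells were mostly of this kind. Besides HMGCS1, IFIT1 rose by 1.88 ± 0.21 (adjusted p = 0.0461 by limma), with scramble at 6.80 beside the hairpins. HBEGF, a growth factor of the EGF family, had 4.86 and 4.85 with the hairpins and 4.86 with scramble, all under the filter level, against 6.79 untransduced. ERN1, the sensor IRE1 of the unfolded protein response, had 7.16 and 7.0 with the hairpins and 6.78 with scramble, against 8.93 untransduced, and fell by 1.86 in the hairpin arrays (adjusted p = 0.027 by limma). DDIT3, the stress factor CHOP, had 6.74 and 6.67 with the hairpins and 6.31 with scramble, against 8.20 untransduced (adjusted p = 0.0494 by limma). KLHDC7B had 6.51 and 6.22 with the hairpins and 6.47 with scramble, against 8.54 untransduced (adjusted p = 0.0461 by limma). TRIB3 and CREBRF, both tied to the same stress pathway, followed the pattern without being called. TRIB3 had 9.84 and 9.42 with the hairpins and 9.59 with scramble, against 11.28, and CREBRF had 5.27 and 4.80 with the hairpins and 5.35 with scramble, against 6.96. In the whole list of the integrated stress and unfolded protein response, 3 of 13 genes had all 3 transduced arrays below untransduced by 0.5 or more. In 1 they lay above by as much (all genes, 3.25% below and 3.3% above). The list's median was 0.02 against both controls and 0.10 against untransduced cells alone, so the list did not fall as a whole.

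The remaining 3 called genes did not have scramble level with the hairpins. SCARNA9L (values above) rose by 2.05 ± 0.19 against untransduced cells (adjusted p = 0.027 by limma), and its difference from scramble was 1.17 (adjusted p = 0.339). THEMIS was called higher than in untransduced cells, with a fitted difference of 2.14 ± 0.20 (adjusted p = 0.027 by limma). Its untransduced level of 4.29 lay under the filter level of 5.18, so the size is uncertain, and its difference from scramble was -1.78 (adjusted p = 0.215). LINC01226, a long intergenic noncoding RNA outside the naming rule that is given because it was called, had 6.24 and 6.41 with the hairpins, against 8.45 with scramble and 8.92 untransduced. It fell by 2.60 against untransduced cells (adjusted p = 0.0328 by limma), and its difference from scramble was -2.13 (adjusted p = 0.215). SCARNA9L and LINC01226 were thus the called genes in which both hairpins also stood apart from scramble on the same side.

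The scramble array had shifts of its own. It lay above the other 3 arrays by at least 0.5 in 83 genes (0.929%) and below them in 71 (0.795%). For the hairpins the count was 51 genes in each direction. The rules differ, since scramble had to stand apart alone, whereas both hairpins had to clear both controls. These counts are therefore not like measures, and which pattern was the more frequent was not tested. The surrogate light chain gene IGLL1 had 7.42 and 7.45 with the hairpins, against 9.07 with scramble and 7.68 untransduced. SMIM24 had 7.56 and 7.54 with the hairpins, against 9.29 and 7.47 in the controls. The zinc finger gene ZNF786 had 7.63 and 7.76 with the hairpins, against 6.71 with scramble and 8.34 untransduced, and ZNF33B had 8.74 and 8.85 with the hairpins, against 7.95 and 8.77 in the controls. PLAC8L1 had 6.44 and 6.20 with the hairpins, against 5.35 and 6.67 in the controls, and DRICH1 had 6.93 and 6.46 with the hairpins, against 5.43 and 6.23 in the controls. Of the 13 tested genes of glycolysis and hypoxia, scramble was the highest of the 4 arrays in 9, against 21.8% of all genes. Their median difference between hairpins and scramble was -0.45, and against untransduced cells it was 0.16. NDRG1, which is induced in hypoxia, had 6.56 and 6.96 with the hairpins, against 7.90 with scramble and 7.20 untransduced. BNIP3L, of mitochondrial autophagy, had 10.85 and 10.61 with the hairpins, against 11.50 and 10.86 in the controls.

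Small RNA genes were on the array as their precursors, without separate values for the mature arms. Of 279 tested microRNA genes, both hairpins lay above both controls by 0.5 or more in 3 and below in 4, against 0.571% of all genes each way; those given next were chosen after their values were seen. MIR223, known from myeloid cells and T-ALL, had 7.03 and 7.44 with the hairpins, against 8.14 with scramble and 9.11 untransduced (difference -1.39 ± 0.53, adjusted p = 0.619 by limma). MIRLET7F1, of the let-7 family, had 6.42 and 6.16 with the hairpins, against 4.91 and 5.25 in scramble and untransduced cells (difference 1.21 ± 0.41). MIR891A had 7.60 and 7.56 with the hairpins, against 6.67 and 6.13 in the controls (difference 1.18 ± 0.36). MIR1913 was the other higher one, and MIR32, MIR3155A and MIR3916 were the other lower ones. The mature sequences of 3 of them, from RefSeq on GRCh38.p14, are given with the seed (bases 2 to 8) in capitals, and no seed is shared among them.
hsa-miR-223-3p: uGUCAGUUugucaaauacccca
hsa-let-7f-5p: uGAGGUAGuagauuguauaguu
hsa-miR-891a-5p: uGCAACGAaccugagccacuga

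The hairpin genes of HPB-ALL were only in part apart in CCRF-CEM. Of the 51 higher genes, the CCRF-CEM hairpins lay above both CCRF-CEM controls in 20 and below both in 1, against 22.3% above and 20.8% below over all genes. Of the 51 lower genes, they lay below both in 16 and above both in 4. A limma test of the difference between the lines called 0 of 8930 genes (0%), with 410 at an unadjusted p under 0.05, so no gene was shown to differ between them. Without the CCRF-CEM scramble array it called 8. SRGN had a difference of -2.15 ± 0.31 in HPB-ALL and -0.42 ± 0.31 in CCRF-CEM. CD5 had -1.16 ± 0.17 in HPB-ALL and -0.24 ± 0.17 in CCRF-CEM. TYROBP had -1.32 ± 0.21 in HPB-ALL and 0.04 ± 0.21 in CCRF-CEM, where its 4 arrays lay between 5.34 and 5.46. HSD17B10 stood higher in both lines, by 1.09 ± 0.20 in HPB-ALL and 0.76 ± 0.20 in CCRF-CEM. CYTOR did so too, with 0.96 ± 0.25 in HPB-ALL and 0.70 ± 0.25 in CCRF-CEM. TOX differed by -1.16 ± 0.41 in HPB-ALL and -0.77 ± 0.41 in CCRF-CEM.

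For the difference between lines, the 4 higher and 4 lower genes with the smallest p in their direction, among those with an HPB-ALL array at or above the filter level, had an adjusted p of 0.861 (CFD) or 0.973 (the others) by limma. CHI3L2 differed by -1.85 ± 0.27 in HPB-ALL and 0.25 ± 0.27 in CCRF-CEM. BCAM, a laminin receptor, had 5.16 and 5.65 with the HPB-ALL hairpins, against 6.32 and 6.48 in scramble and untransduced cells, and 5.10 and 4.90 with the CCRF-CEM hairpins, against 4.66 and 4.51 in that line's controls. GP5, a platelet glycoprotein, differed by -0.48 ± 0.18 in HPB-ALL and 0.72 ± 0.18 in CCRF-CEM. In the other direction, the ribosomal protein gene RPL14 differed by 0.69 ± 0.18 in HPB-ALL and -0.27 ± 0.18 in CCRF-CEM. CEP162 differed by 0.82 ± 0.16 in HPB-ALL and -0.05 ± 0.16 in CCRF-CEM. ENO1-AS1 differed by 0.44 ± 0.15 in HPB-ALL and -0.68 ± 0.15 in CCRF-CEM, and DPY19L2P2 by 0.29 ± 0.22 in HPB-ALL and -0.95 ± 0.22 in CCRF-CEM. ENO1-AS1 is an antisense gene and DPY19L2P2 bears a pseudogene name, so their signal may come from related or overlapping genes.

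**Figure D4:**
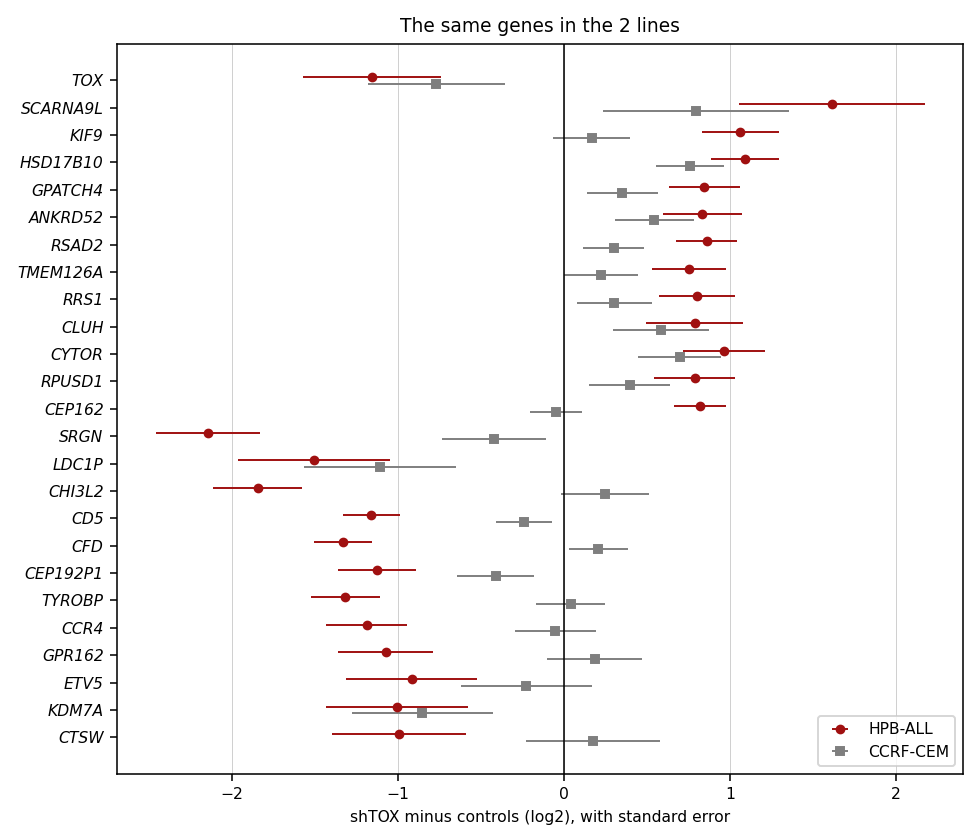
Difference between the hairpin arrays and the controls (log2, x axis, with standard error) for TOX and the 24 genes named for HPB-ALL, in HPB-ALL (circles) and CCRF-CEM (squares). The genes were chosen for their gap in HPB-ALL, so the circles lie far from 0 by choice. The squares reach 0.80 for SCARNA9L and -1.11 for LDC1P, and both rest mainly on the untransduced CCRF-CEM array. There SCARNA9L had 7.49 and 7.23 with the hairpins, against 7.59 with scramble and 5.54 untransduced. LDC1P had 7.19 and 7.53 with the hairpins, against 7.58 with scramble and 9.35 untransduced. The squares of CFD, CHI3L2, TYROBP, GPR162, CTSW and CEP162 lie on the other side of 0 from their circles.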

How the data were processed

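Per the labels' protocols, total RNA was labelled by the GeneChip WT Plus protocol. The deposited values were taken as log2 intensities of 53617 probe sets from their range; how the authors corrected, normalized and summarized them is not given in the sources used here. Since array medians were nearly equal, a change common to every gene would not be visible. Of the probe sets, 16098 had 1 gene symbol, all matched to RefSeq, and stood for 14884 genes; for the 779 with several, the one with the highest mean was used. Genes at or above the 40th percentile of the mean over 8 arrays (5.18) were tested.

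limma 3.58.1 in R 4.3.3 (lmFit, eBayes without trend) was fitted to all 8 arrays and all 8930 genes, with a mean per line and state, and again with scramble and untransduced cells apart. The threshold for a call was 0.05 on the p-value after Benjamini-Hochberg adjustment. Values after ± are standard errors. The scripts were tested on simulated data.

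Named genes were TOX, the 12 higher and 12 lower with the widest gap between hairpins and controls, 6 and 6 for transduced against untransduced arrays, 4 and 4 for scramble, 4 and 4 by p between lines, and up to 6 per list and 4 per marker list. There were 23 gene lists and 6 marker lists. The arrays, lists and rules were chosen with earlier results of these data known. Symbols of LINC, MIR and LOC type were counted rather than named, apart from those called or said to be chosen afterwards.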

Additional observations from a re-analysis of the deposited data

Results flagged for a closer look

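CFD stood on opposite sides of the controls in the lines. It had 7.84 and 7.59 with the hairpins in HPB-ALL, against 9.19 with scramble and 8.89 untransduced, and 6.47 and 6.64 with the hairpins in CCRF-CEM, against 6.31 with scramble and 6.39 untransduced. The HPB-ALL difference minus the CCRF-CEM difference was -1.54 on the log2 scale, with an adjusted p of 0.861 by limma, so the difference between lines did not pass the test.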

How the results depend on the processing

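The test against both controls called 0 genes under every setting run without leaving out single arrays, and 0 to 1 when 1 array was left out. The test against scramble called 0 genes, and 0 to 16 with 1 array left out; the test of the lines called 0, and 0 to 8. Against untransduced cells the 9 calls became 46 with no filter, 5 with a 60th percentile filter, 5 after quantile normalization, 105 with trended and robust eBayes and 0 with the HPB-ALL arrays alone; leaving out 1 array gave 0 to 186. The TOX difference lay between -1.86 and -0.45 with 1 array left out, with adjusted p from 0.421 to 0.944 by limma.

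Counts of genes apart between arrays depend on the gap by construction. For hairpins against both controls, the 51 higher genes became 313 at a gap of 0.3 and 1 at a gap of 1, and the 51 lower genes 202 and 6, and 30 with the 60th percentile filter. For transduced against untransduced arrays, the 295 higher genes became 796 and 26, and the 290 lower genes 753 and 29, and 178 with the 60th percentile filter. For scramble, the 83 higher genes became 300 and 12, 131 with no filter and 42 with the 60th percentile filter, and the 71 lower genes 302, 0 and 40 for gaps of 0.3 and 1 and that filter. With 1 HPB-ALL array left out fewer arrays must be apart, and counts were 189 to 547 (hairpins higher), 184 to 463 (hairpins lower), 380 to 547 (transduced higher), 358 to 463 (transduced lower), 159 to 189 (scramble higher) and 115 to 189 (scramble lower).

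Some list medians changed sign. That of CDK inhibitors and G1 cyclins (-0.0222) was 0.271 with the 60th percentile filter, 0.0412 with the mean of probe sets and -0.0784 to 0.0617 with 1 array left out. That of the integrated stress list (0.0189) was -0.0396 after quantile normalization and -0.0774 to 0.0990 with 1 array left out, and that of T-ALL oncogenic factors -0.16 to 0.0331. Cholesterol biosynthesis ranged from -0.153 to 0.843 and glycolysis from -0.454 to 0.164, which are their values against scramble alone and untransduced cells alone. Apart from what the construction of a setting shows, the cause was not tested.

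The hairpin numbers name constructs shared by the lines and are no pairing of cultures. The deviations of the lines correlated at r = 0.225 for shTOX-1 minus shTOX-2 and 0.371 for scramble minus untransduced across genes. With the replicate block, 0 genes were called against both controls, 0 between lines, and TOX had -1.16 with an adjusted p of 0.192 by limma. With an HPB-ALL hairpin array left out, the tests against scramble or untransduced cells alone held no HPB-ALL replicate. The number of arrays limits the precision, and values near 5.18 lie near the dim end of the scale.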

Other observations

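Probe sets with no gene name here were counted by the same gap. Of 37519 such probe sets, 13003 reached the filter level; in 231 both hairpins lay above both controls by 0.5 or more, and in 124 below. With a gap of 1 there were 28 above and 10 below. They enter no comparison of genes.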
